A study of Mus musculus with 6 samples.

Results

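The genes described are 34 markers of megakaryocytes and platelets, listed by symbol and not ranked by a measured value. The list was made with earlier results of these data known. They comprise 12 adhesion receptors, 4 genes of signalling through G protein coupled receptors, 7 granule or secreted proteins, 3 genes of granule release, 5 genes of the cytoskeleton and of integrin activation and 3 eicosanoid enzymes. All 34 are among the 24421 gene rows of the count table, and 32 of them are among the 13548 genes with enough reads to be tested. RNA was sequenced from LK cells of the bone marrow, which lack lineage markers and carry the receptor c-Kit, of C57BL/6 mice aged 8 to 12 weeks. ASXL1-MT-KI mice, which carry a knock-in of mutant ASXL1, were set against wild type littermates, with 3 libraries in each group. The sources used here do not give the locus or promoter of the knock-in, nor whether a library held 1 animal or several, so p-values measure the spread between these libraries.

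Megakaryocytes are the large marrow cells that shed platelets, and they arise from progenitors and from megakaryocyte-biased stem cells, both of which are c-Kit positive. Platelets stick to damaged vessel walls through the GPIb-IX-V complex, which binds von Willebrand factor, and through the integrin αIIbβ3, which binds fibrinogen. Thrombin, ADP, collagen and thromboxane activate them, after which they release granules filled with adhesive proteins and chemokines. Several of the genes, among them Plek, Bin2, Fermt3, Ptgs1, Tbxas1 and F10, are also used by other blood cells.

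Libraries held 40462168 to 47579480 gene counts, and libraries of a group differed by a biological coefficient of variation of 8.78%. Levels are given as CPM, the count scaled by library size and TMM factor. Asxl1 averaged 320.0 ± 8.70 CPM in ASXL1-MT-KI and 170.3 ± 5.43 CPM in wild type (SD, n = 3 each), with no overlap. Kit had 15745 to 17907 counts in ASXL1-MT-KI and 17198 to 18380 in wild type, whereas Cd8a, which marks T cells that the gate removes, had 1 count in each ASXL1-MT-KI library and 2 to 3 in wild type. Not every lineage marker was near absent. Itgam had 1579 to 1938 counts in ASXL1-MT-KI and 1363 to 1917 in wild type. For Cd4 there were 67 to 95 counts in ASXL1-MT-KI and 45 to 60 in wild type. The number 3 libraries of both groups stood apart from numbers 1 and 2, as given below for the genes concerned. In bulk RNA, fewer cells of a type and less RNA per cell cannot be told apart.

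The promoters of genes that the results turn on are shown first. RefSeq promoter entries on GRCm38.p6 were matched for 27 of the 34 symbols, and the 250 bases before the annotated start were searched on both strands for motif letters of GATA factors, written AGATAA, of ETS factors, written GGAAGT, and of RUNX factors, written TGTGGT. No 2 matches overlapped. Capitals mark a match on either strand, and all sequences run 5′ to 3′ on the gene's own strand. Shown are Gp5 (chr16:30310782-30311031, minus strand) and P2ry1 (chr3:61002535-61002784, plus strand), which were higher in ASXL1-MT-KI cells, then F2r (chr13:95618467-95618716, minus strand), Plek (chr11:17008719-17008968, minus strand) and Treml1 (chr17:48359666-48359915, plus strand), which were lower, and Pf4 (chr5:90772185-90772434, plus strand), a granule gene whose groups overlapped.
Gp5: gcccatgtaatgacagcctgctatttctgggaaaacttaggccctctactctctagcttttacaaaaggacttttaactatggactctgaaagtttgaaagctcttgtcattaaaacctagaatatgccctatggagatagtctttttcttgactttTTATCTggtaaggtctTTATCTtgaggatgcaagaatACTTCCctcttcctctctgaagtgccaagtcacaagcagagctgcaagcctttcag
P2ry1: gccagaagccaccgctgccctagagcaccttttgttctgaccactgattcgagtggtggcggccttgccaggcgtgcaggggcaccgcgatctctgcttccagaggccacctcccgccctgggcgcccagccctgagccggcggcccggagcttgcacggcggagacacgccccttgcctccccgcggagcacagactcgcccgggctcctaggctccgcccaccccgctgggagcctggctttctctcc
F2r: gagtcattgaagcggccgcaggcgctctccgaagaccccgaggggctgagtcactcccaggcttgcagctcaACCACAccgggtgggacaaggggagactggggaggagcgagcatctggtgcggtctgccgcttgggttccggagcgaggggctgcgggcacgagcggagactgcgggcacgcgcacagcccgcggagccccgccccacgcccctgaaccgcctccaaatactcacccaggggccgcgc
Plek: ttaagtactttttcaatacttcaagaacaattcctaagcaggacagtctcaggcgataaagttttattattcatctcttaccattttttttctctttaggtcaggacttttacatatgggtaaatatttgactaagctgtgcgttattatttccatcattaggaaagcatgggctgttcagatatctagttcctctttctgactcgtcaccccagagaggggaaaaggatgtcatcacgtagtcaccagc
Treml1: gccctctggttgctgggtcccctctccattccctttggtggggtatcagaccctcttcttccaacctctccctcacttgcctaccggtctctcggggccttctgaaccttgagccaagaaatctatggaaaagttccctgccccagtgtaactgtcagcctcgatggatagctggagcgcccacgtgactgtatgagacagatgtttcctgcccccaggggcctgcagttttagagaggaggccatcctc
Pf4: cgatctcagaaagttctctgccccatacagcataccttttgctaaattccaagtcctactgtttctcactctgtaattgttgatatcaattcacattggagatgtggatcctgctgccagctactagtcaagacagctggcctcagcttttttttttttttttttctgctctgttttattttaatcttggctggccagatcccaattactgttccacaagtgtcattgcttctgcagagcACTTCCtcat
Gp5 carried 2 GATA matches, ending 87 and 71 bases before its start, and an ETS match ending 50 bases before it. Pf4 had an ETS match 4 bases before its start, and F2r a RUNX match 172 bases before it. In the windows of P2ry1, Plek and Treml1 none of these letters occurred. Some windows are not purely upstream sequence. The Plek window lies inside the annotated span of the gene (16971206 to 17052381). All 250 bases of the P2ry1 window are exon of another gene, Gm37035, and 21 bases of the F2r window are exon of F2r. Over the 28 promoter entries of the matched genes, 4 held the GATA letters, 8 the ETS letters and 4 the RUNX letters, against shares of 9.99%, 19.7% and 14.0% among all 32851 mouse promoters of the same length. A match describes letters in the window and does not show binding.

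Among the 32 tested genes 3 were higher and 8 lower in ASXL1-MT-KI cells at a Benjamini-Hochberg adjusted p under 0.05 in edgeR. The higher ones were the receptor genes Gp5 and P2ry1 and the protease inhibitor gene Serpine2. The lower ones were F2r, Plek, Itga2b, Treml1, Thbs1, Mylk, Bin2 and Tubb1. Of all tested genes 8.29% were higher and 7.69% lower, 16% in either direction. The share of higher genes, 9.38%, was near that background, and the share of lower ones was 25%. The median log2 fold change was -0.12 for the 32 genes and 0.00 for all tested genes. CPM values did not overlap between the groups, with ASXL1-MT-KI above wild type, for 4 of the 32 genes, against 18% of all tested genes, and with ASXL1-MT-KI below for 10, against 17.2%. The count of lower genes depended on single libraries. It was 4 without ASXL1-MT-KI replicate 2, ASXL1-MT-KI replicate 3 or wild type replicate 1, and 5 without wild type replicate 2. In these fits, in the same order, 587, 882, 594 and 916 of all tested genes were lower, against 1042 with all libraries. Without number 3 of both groups 4 were higher and 5 lower, where 17.8% of all genes were called (9.61% higher and 8.21% lower). With the replicate number as a block 4 were higher and 11 lower, where 30.5% of all genes were called (16.7% higher and 13.8% lower).

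**Figure D1:**
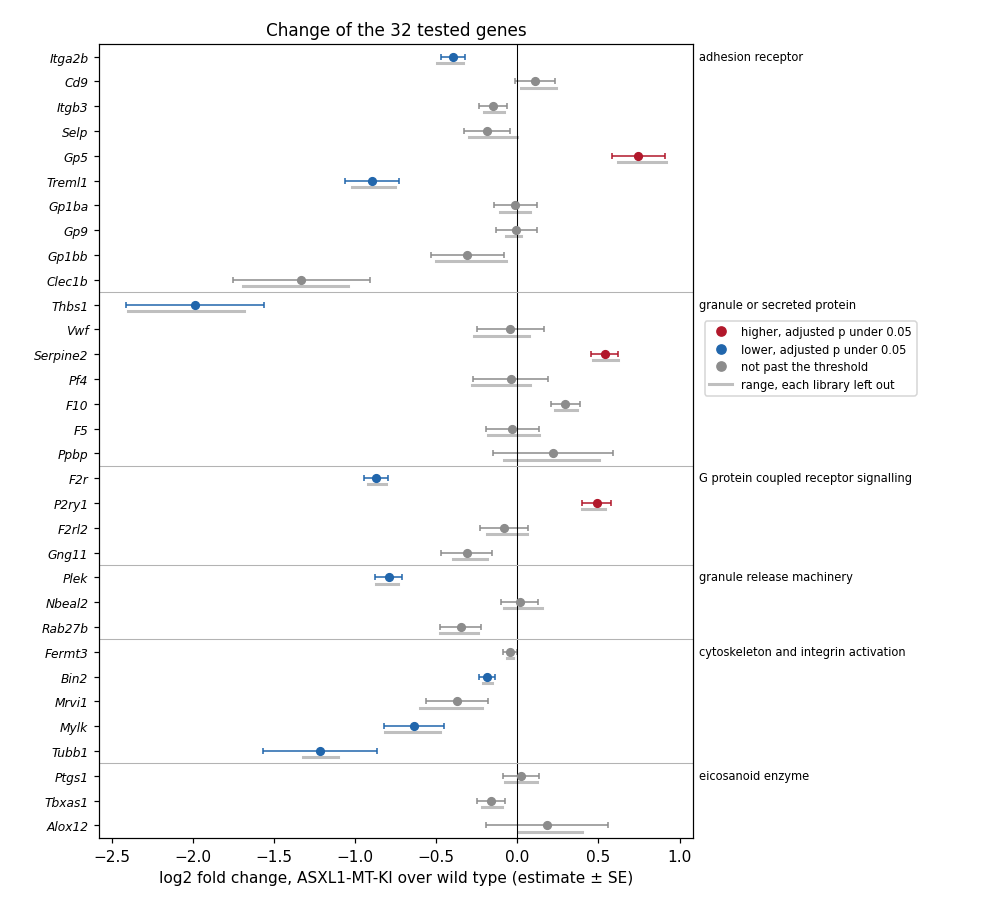
Log2 fold change of ASXL1-MT-KI over wild type on the x axis for the 32 tested genes, grouped by role, with the standard error as bars; grey lines below each point span the estimates when each library is left out. F2r, Plek and Treml1 lie at -0.87, -0.79 and -0.90, while Thbs1 lies at -1.99 with a standard error of 0.43.

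The summed level of the 34 genes was 1626, 1399 and 1507 CPM in ASXL1-MT-KI libraries 1 to 3, against 1960.2, 1800.4 and 1844 CPM in wild type libraries 1 to 3. All 3 ASXL1-MT-KI sums lay below the wild type sums. Most of that gap came from Thbs1, Plek, F2r and Itga2b. They averaged 42.3, 161, 71.8 and 126 CPM in ASXL1-MT-KI and 168, 279, 131 and 166 CPM in wild type. The log2 fold change was negative for 23 of the 32 tested genes and positive for 9, so the sum does not describe each of them. Levels of different genes can be set side by side only per length, here as CPM per kb of the longest annotated transcript. On that scale Fermt3, which encodes kindlin-3, a protein that binds integrin tails, was at 130.1 ± 3.91 CPM per kb in ASXL1-MT-KI and 134 ± 1.18 in wild type (SD, n = 3 each). Bin2, a membrane-bending protein, was at 71.0 ± 2.40 CPM per kb in ASXL1-MT-KI and 80.8 ± 3.19 in wild type, and the chemokine gene Pf4 at 55.7 ± 14.2 CPM per kb in ASXL1-MT-KI and 57.3 ± 12.2 in wild type. Low values were also found among platelet products. Tubb1, the platelet form of β-tubulin, was at 0.105 ± 0.0171 CPM per kb in ASXL1-MT-KI and 0.248 ± 0.0316 in wild type, and Clec1b, the podoplanin receptor gene, at 0.050 ± 0.021 CPM per kb in ASXL1-MT-KI and 0.125 ± 0.0454 in wild type. Tubb1, Clec1b, Ppbp, Alox12, Gp6, Cd226, Mylk and Mrvi1 were at or below 0.997 CPM per kb in ASXL1-MT-KI cells.

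**Figure D2:**
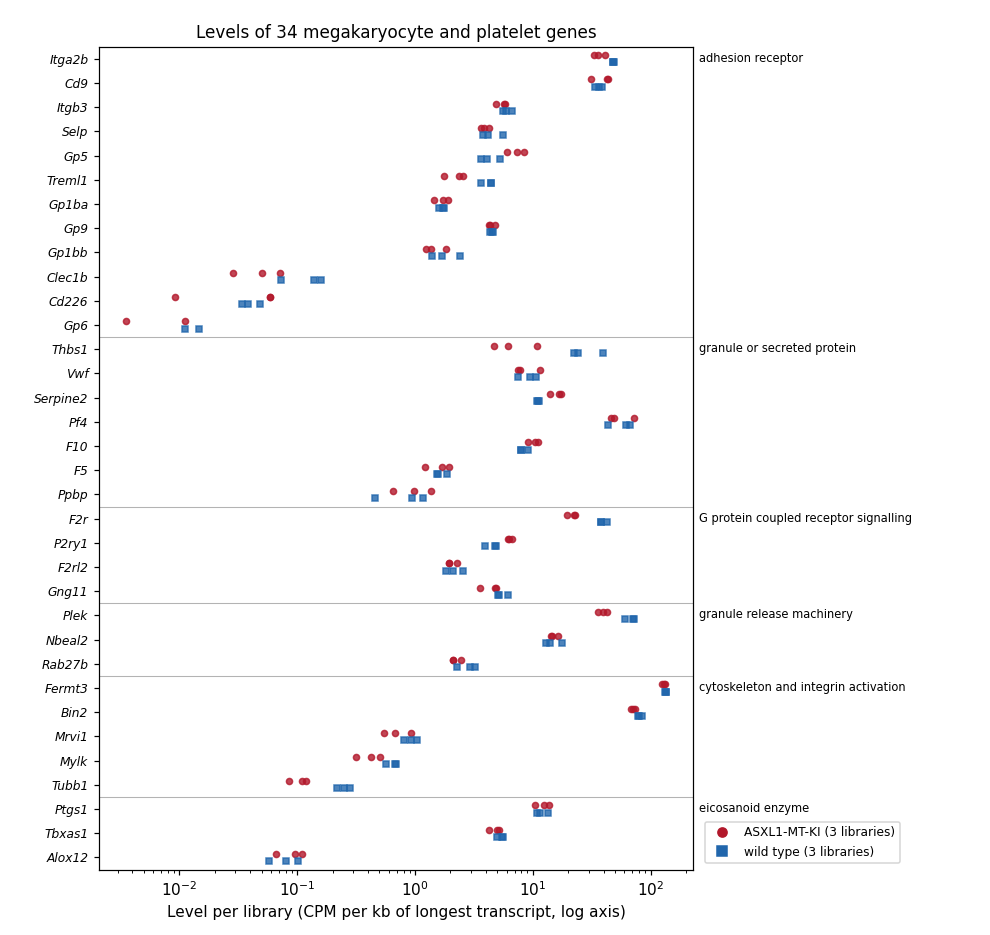
Level of each of the 34 genes in each library, in CPM per kb of the longest transcript on a log x axis, grouped by role; red circles are the 3 ASXL1-MT-KI and blue squares the 3 wild type libraries, and libraries with no Gp6 counts are not drawn. Mean levels run up to 130.1 in ASXL1-MT-KI and 134 in wild type for Fermt3, and circles lie left of squares for F2r, Plek and Treml1.

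Of the 10 tested adhesion receptor genes 1 rose and 2 fell, where 8.29% of all tested genes were higher and 7.69% lower. The counts of the other roles below stand against the same shares. Itga2b, the αIIb chain of the fibrinogen receptor and an early megakaryocyte marker on chromosome 11 (102453297 to 102470122, mm10), had 142, 114 and 123 CPM in ASXL1-MT-KI libraries 1 to 3, against 168, 165 and 166 CPM in wild type. The wild type values were nearly equal and all above the knock-in values. Itga2b fell by 0.40 on the log2 scale (SE 0.073, adjusted p = 0.00665), and missed the threshold without number 3 of both groups (adjusted p = 0.0537). Its partner chain Itgb3 had 33.9, 32.7 and 28.4 CPM in ASXL1-MT-KI and 34.5, 38.2 and 32.6 CPM in wild type. These ranges overlapped, and Itgb3 did not pass (log2 fold change -0.15, adjusted p = 0.282).

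The GPIb-IX-V complex is built from the products of Gp1ba, Gp1bb, Gp9 and Gp5, and Gp5 alone among these passed. Gp5, on chromosome 16 (30307685 to 30310779), had 18.5, 16.1 and 13.3 CPM in ASXL1-MT-KI libraries, against 8.93, 11.6 and 8.01 CPM in wild type. The lowest knock-in library was above the highest wild type library, and the rise was 1.68-fold (log2 fold change 0.75 ± 0.16, SE, adjusted p = 0.0157). Leaving out ASXL1-MT-KI replicate 1 (adjusted p = 0.0526), ASXL1-MT-KI replicate 2 (0.0588) or wild type replicate 1 (0.0738) ended the call, with the log2 fold change at 0.62, 0.73 and 0.70. Gp1ba, whose product binds von Willebrand factor, averaged 4.57 ± 0.589 CPM in ASXL1-MT-KI and 4.62 ± 0.212 CPM in wild type. Gp9 averaged 3.92 ± 0.274 CPM in ASXL1-MT-KI and 3.94 ± 0.114 CPM in wild type, and neither gene passed (adjusted p = 0.966 and 0.980). Gp1bb did not pass either (log2 fold change -0.31, adjusted p = 0.398), but 91.1% of its exon bases are shared with Sept5 on the same strand in GENCODE M21, so its counts are uncertain. Whether the change of Gp5 differed from that of its partners was not tested.

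Treml1, a receptor stored in platelet granules, is on chromosome 17 (48359916 to 48367176). It had 3.19, 2.17 and 2.92 CPM in ASXL1-MT-KI, against 5.42, 5.43 and 4.53 CPM in wild type, from 98 to 153 counts per library in ASXL1-MT-KI and 184 to 249 in wild type. The groups did not overlap, and Treml1 fell to 0.538 of its wild type level (log2 fold change -0.90 ± 0.17, adjusted p = 0.00735). Clec1b had 6, 14 and 9 counts in ASXL1-MT-KI and 32, 28 and 13 in wild type. Its CPM values did not overlap but it missed the threshold (log2 fold change -1.33 ± 0.42, adjusted p = 0.0609), passing with the replicate block (0.0174), with no filter (0.0465), without wild type replicate 3 (0.0199) and without number 3 of both groups (0.0289). Selp, the P-selectin gene, and the tetraspanin gene Cd9 overlapped between the groups (log2 fold changes -0.19 and 0.11, adjusted p = 0.414 and 0.610). Gp6, the collagen receptor gene, had 1, 3 and 0 counts in ASXL1-MT-KI and 4, 3 and 0 in wild type, a depth-scaled ratio of 0.561 (95% counting interval 0.121 to 2.21). Cd226, an adhesion receptor also found on lymphocytes, had 2, 12 and 11 counts in ASXL1-MT-KI and 7, 10 and 7 in wild type. Gp6 and Cd226 were too scarce to test, and a difference between groups was not detectable at this depth.

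**Figure D3:**
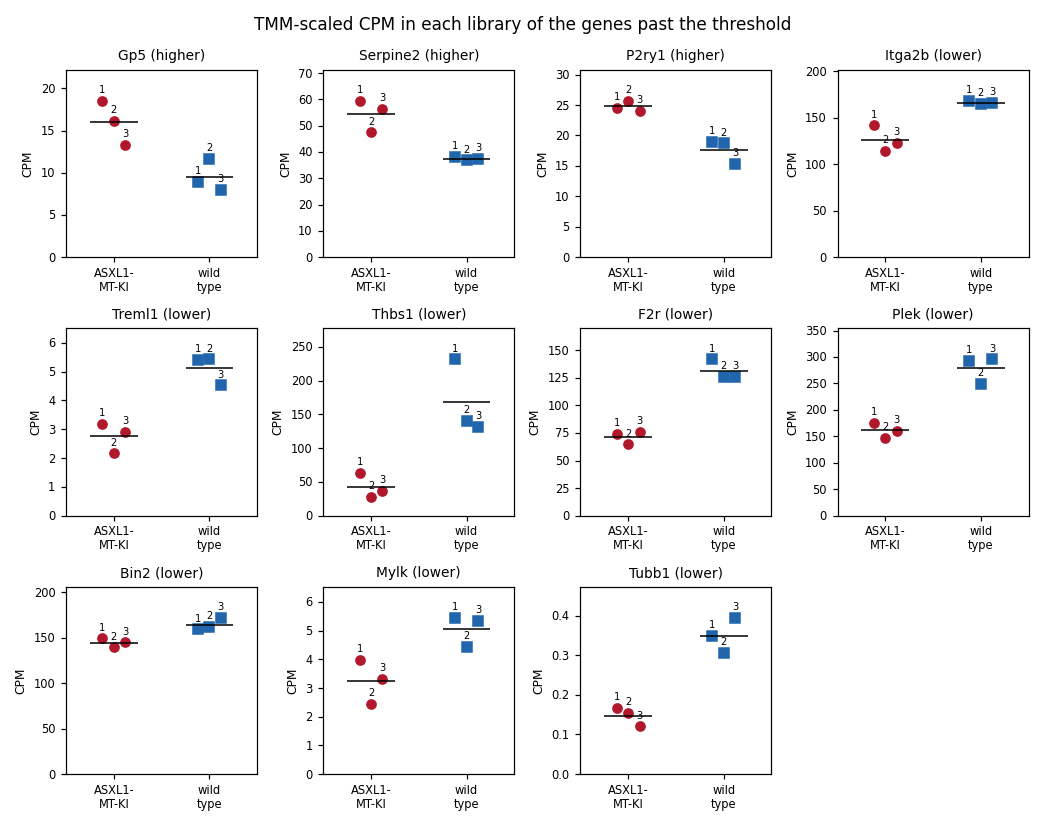
CPM of the 11 genes past the threshold in each library, with ASXL1-MT-KI on the left and wild type on the right of each panel, replicate numbers beside the points and group means as lines; every y axis starts at 0. The groups do not overlap in any panel, and the gap between them is small for Bin2, with 139.6 to 149 CPM in ASXL1-MT-KI and 159 to 172 CPM in wild type.

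In the group of G protein coupled receptors and their signalling, a thrombin receptor gene fell and an ADP receptor gene rose. F2r encodes PAR1, a receptor that thrombin activates by cutting it; mouse platelets are known to respond to thrombin through other receptors of the family. F2r had 74.4, 64.8 and 76.1 CPM in ASXL1-MT-KI libraries, against 142, 126 and 126 CPM in wild type. Every knock-in library was far below every wild type library, and F2r fell to 0.546 of its wild type level (log2 fold change -0.87 ± 0.074, adjusted p = 0.000142). Its estimate stayed between -0.92 and -0.81 when each library was left out. F2rl2 encodes PAR3, a thrombin cofactor on mouse platelets, and lies near F2r on chromosome 13 (95696853 to 95702739, with F2r at 95601803 to 95618487). It had 5.69, 4.82 and 4.84 CPM in ASXL1-MT-KI and 6.43, 5.23 and 4.58 CPM in wild type, with overlap and no call (log2 fold change -0.08 ± 0.15, adjusted p = 0.767).

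P2ry1, an ADP receptor that starts platelet shape change, is on chromosome 3 (61002795 to 61008982). It had 24.6, 25.7 and 24.1 CPM in ASXL1-MT-KI, against 18.9, 18.7 and 15.3 CPM in wild type. The knock-in libraries lay close together above all wild type libraries, and P2ry1 rose 1.40-fold (log2 fold change 0.49 ± 0.090, adjusted p = 0.00646). The gene Gm37035, annotated on the other strand, shares 23.1% of the exon bases of P2ry1, and reads of the pair cannot be told apart without strand. Gng11, a G protein γ subunit gene, had 3.30 to 4.48 CPM in ASXL1-MT-KI and 4.68 to 5.69 CPM in wild type, without overlap and without a call (log2 fold change -0.31, adjusted p = 0.213).

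Among the 7 granule and secreted proteins Thbs1 was lower and Serpine2 higher, while the α-granule genes Pf4, Ppbp and Vwf did not pass. Pf4, platelet factor 4, had 42.4, 28.6 and 27.2 CPM in ASXL1-MT-KI and 39.0, 36.6 and 25.5 CPM in wild type. Vwf, the gene of von Willebrand factor, had 101, 69.2 and 66.8 CPM in ASXL1-MT-KI and 93.8, 84.1 and 66.7 CPM in wild type. For both genes the groups overlapped, and the log2 fold change was -0.04 with a standard error of 0.23 for Pf4 and -0.04 with 0.21 for Vwf (adjusted p = 0.931 and 0.919). Ppbp, the neighbour of Pf4 on chromosome 5 (90768518 to 90770063, with Pf4 at 90772435 to 90773383), encodes another chemokine and had 29 to 71 counts in ASXL1-MT-KI and 20 to 58 in wild type. It did not pass (log2 fold change 0.22 ± 0.37, adjusted p = 0.746). When libraries were scaled by total counts alone, the log2 fold changes of Pf4, Vwf, Gp1ba and Gp9 turned positive, at 0.011, 0.0092, 0.038 and 0.045.

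Thbs1, thrombospondin 1, an adhesive α-granule protein that many other cells also make, had the largest fitted change of the 32 genes. It had 63.2, 27.4 and 36.3 CPM in ASXL1-MT-KI, against 231, 141 and 131 CPM in wild type. Number 1 was the highest library in each group, and all knock-in values were below all wild type values. Thbs1 fell to 0.252 of its wild type level (log2 fold change -1.99 ± 0.43, adjusted p = 0.0447). Leaving out any library other than ASXL1-MT-KI replicate 1 ended the call, with adjusted p of 0.0754 to 0.148 and log2 fold changes of -2.13 to -1.68, as did leaving out number 3 of both groups (adjusted p = 0.216) and testing with no filter (0.0716). Serpine2, an inhibitor of thrombin and other serine proteases, had 59.5, 47.4 and 56.4 CPM in ASXL1-MT-KI, against 38.2, 36.8 and 37.5 CPM in wild type. The wild type libraries were nearly equal, and Serpine2 rose 1.45-fold (log2 fold change 0.54 ± 0.082, adjusted p = 0.00256).

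Of the coagulation factor genes, F10 had 23.0, 27.8 and 26.3 CPM in ASXL1-MT-KI and 19.8, 20.0 and 23.0 CPM in wild type. The lowest knock-in value was just above the highest wild type value, and F10 missed the threshold (log2 fold change 0.30 ± 0.092, adjusted p = 0.0572). It passed with the replicate block (adjusted p = 0.00559), in DESeq2 (0.0323), with total counts (0.0422) and with no filter (0.0372). F10 also passed when wild type replicate 3 (0.0210), ASXL1-MT-KI replicate 1 (0.0380) or number 3 of both groups (0.0325) was left out. F5, which lies next to Selp on chromosome 1 (164151838 to 164220277, with Selp at 164115264 to 164150026), had 9.05 to 14.5 CPM in ASXL1-MT-KI and 11.5 to 13.9 CPM in wild type, with no call (adjusted p = 0.922).

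In the release machinery, 1 of 3 genes fell. Plek encodes pleckstrin, a main substrate of protein kinase C in platelets that leukocytes also carry, on chromosome 11 (16971206 to 17052381). It had 175, 148 and 161 CPM in ASXL1-MT-KI, against 293, 249 and 295 CPM in wild type. The highest knock-in library was well below the lowest wild type library, and Plek fell to 0.578 of its wild type level (log2 fold change -0.79 ± 0.083, adjusted p = 0.000501). Rab27b, a small GTPase of granule docking, had 16.9, 14.4 and 14.6 CPM in ASXL1-MT-KI and 22.3, 20.3 and 15.8 CPM in wild type. Wild type 3 lay within the knock-in range, and Rab27b did not pass (log2 fold change -0.35, adjusted p = 0.0996), except with the block (0.00524), without wild type replicate 3 (0.00791) and without number 3 of both groups (0.0140). Nbeal2, needed to form α-granules, averaged 132 ± 9.62 CPM in ASXL1-MT-KI and 131 ± 21.7 CPM in wild type (log2 fold change 0.01 ± 0.11, adjusted p = 0.951). None of the 3 genes rose in edgeR, including at an unadjusted p under 0.05, or in DESeq2 or limma-voom.

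Among the 5 genes of the cytoskeleton and of integrin activation 3 fell, each on a call that single libraries decided. Mylk, myosin light chain kinase, had 3.98, 2.45 and 3.33 CPM in ASXL1-MT-KI, against 5.45, 4.43 and 5.35 CPM in wild type. The groups were separate, and Mylk fell by 0.64 on the log2 scale (SE 0.18, adjusted p = 0.0432), but not without ASXL1-MT-KI replicate 2 or 3 or wild type replicate 1 or 3 (adjusted p up to 0.149), nor with total counts (0.0608) or without number 3 of both groups (0.102). Bin2 had 149, 139.6 and 145 CPM in ASXL1-MT-KI and 159, 162 and 172 CPM in wild type. It fell by 0.19 on the log2 scale (SE 0.051, adjusted p = 0.0354), a call lost when any library was left out (adjusted p up to 0.140), with total counts (0.109) and without number 3 of both groups (0.0668). Tubb1 had 8, 7 and 5 counts in ASXL1-MT-KI and 16, 14 and 16 in wild type. The groups did not overlap, and Tubb1 fell by 1.22 on the log2 scale (SE 0.35, adjusted p = 0.0439), a call lost on dropping any 1 of the 6 libraries (adjusted p up to 0.128), in DESeq2 (0.191), with no filter (0.0726) and without number 3 of both groups (0.153). The ratio of its depth-scaled summed counts was 0.427 with a 95% counting interval of 0.239 to 0.737.

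Fermt3 had 399, 376 and 391 CPM in ASXL1-MT-KI and 401, 397 and 404 CPM in wild type. The groups overlapped, and the log2 fold change was -0.04 ± 0.044 (adjusted p = 0.560). Mrvi1, a target of cGMP-dependent kinase that limits calcium release in platelets, did not pass (log2 fold change -0.37, adjusted p = 0.229), but did with the replicate block (0.0246). None of the 5 genes rose in edgeR, including at an unadjusted p under 0.05, or in DESeq2 or limma-voom. The eicosanoid enzymes make thromboxane from arachidonic acid through cyclooxygenase 1 (Ptgs1) and thromboxane synthase (Tbxas1), or 12-HETE through Alox12. Ptgs1 averaged 34.9 ± 4.81 CPM in ASXL1-MT-KI and 34.3 ± 3.87 CPM in wild type. Tbxas1 averaged 21.9 ± 2.05 CPM in ASXL1-MT-KI and 24.5 ± 1.38 CPM in wild type. Alox12 had 9 to 16 counts per library in ASXL1-MT-KI and 7 to 14 in wild type. Of these 3 enzymes none passed in edgeR, DESeq2 or limma-voom, or at an unadjusted p under 0.05 in edgeR (log2 fold changes 0.02, -0.16 and 0.19, adjusted p = 0.917, 0.235 and 0.791).

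Replicate numbers run through both groups, and the difference between libraries of the same number shows how steady each change was. For F2r the log2 difference of ASXL1-MT-KI minus wild type was -0.93, -0.96 and -0.73 in numbers 1 to 3, and for Plek -0.74, -0.75 and -0.88. For P2ry1 it was 0.38, 0.46 and 0.65, and for Gp5 1.05, 0.47 and 0.73. All 11 called genes kept their sign in all 3 numbers, which had to follow because their groups did not overlap. For Pf4 the differences were 0.12, -0.35 and 0.09, and for Vwf 0.11, -0.28 and 0.00, so their sign was not shared. In the number 3 libraries Pf4, Vwf and Ppbp were lower than in numbers 1 and 2 in both groups. The log2 differences of number 3 minus numbers 1 and 2 were -0.35, -0.33 and -0.80 for these genes in ASXL1-MT-KI and -0.56, -0.41 and -1.14 in wild type.

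**Figure D4:**
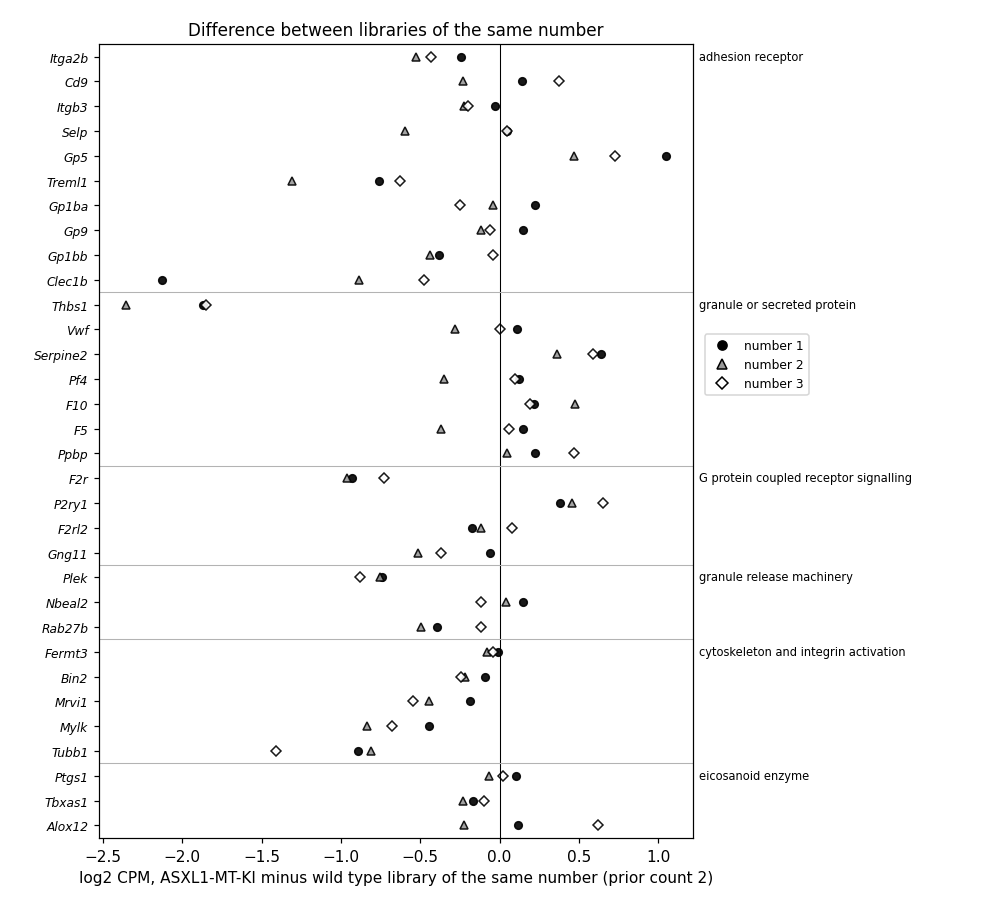
Log2 CPM of the ASXL1-MT-KI library minus that of the wild type library with the same number, on the x axis, for the 32 tested genes grouped by role; black circles, grey triangles and open diamonds are numbers 1, 2 and 3. The 3 symbols lie on 1 side of 0 for the 11 called genes, whose groups do not overlap, and on both sides for Pf4, Vwf and Gp1ba.

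Other megakaryocyte and platelet genes were described with further lists, none of which shares a gene with the 34. Over these 8 lists 9 of 141 tested genes rose and 26 fell, 6.38% higher and 18.4% lower, against 8.29% and 7.69% of all tested genes. With the replicate block 18 were higher and 42 lower, where 16.7% of all tested genes were higher and 13.8% lower. Of 19 tested transcription factors 1 rose and 6 fell, with a median log2 fold change of -0.08. Mafk, a partner of NF-E2, averaged 99.7 ± 0.842 CPM in ASXL1-MT-KI and 151 ± 3.88 CPM in wild type (log2 fold change -0.59, adjusted p = 8.02e-05). Runx1, a regulator of the lineage, averaged 157 ± 9.24 CPM in ASXL1-MT-KI and 201 ± 9.37 CPM in wild type (-0.35, adjusted p = 0.00366). Mecom, a stem cell and megakaryocyte factor, averaged 4.19 ± 0.650 CPM in ASXL1-MT-KI and 7.62 ± 0.887 CPM in wild type (-0.86, adjusted p = 0.00467). Gata1, Fli1, Gfi1b and Nfe2, factors of megakaryocyte maturation, did not pass (log2 fold changes 0.25, -0.14, 0.52 and 0.15). With the replicate block 4 of the 19 were higher and 7 lower. Gata1 and Nfe2 were then higher (adjusted p = 0.00169 and 0.0164) and Fli1 lower (0.0238), while Gfi1b did not pass (0.0943).

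Of 13 tested genes of thrombopoietin signalling 4 fell, and none rose in edgeR, including at an unadjusted p under 0.05, or in DESeq2 or limma-voom. Sh2b3, the adaptor LNK, which restrains cytokine signalling, fell by 0.40 on the log2 scale (adjusted p = 0.00123). Gab2, an adaptor, fell by 0.30 on the log2 scale (adjusted p = 0.0112, and 0.0550 without wild type replicate 1). Stat3 fell by 0.29 on the log2 scale (adjusted p = 0.0381), a call lost without ASXL1-MT-KI replicate 1 or 2 or wild type replicate 1 or 3 (up to 0.120) and with total counts (0.0926). Jak2, Stat5a and Stat5b did not pass (log2 fold changes -0.07, 0.10 and 0.01).

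In the remaining lists most genes did not pass. Of 16 genes of G protein signalling 2 rose and 3 fell. Gna13, a G protein α subunit that acts in shape change, averaged 169.8 ± 7.11 CPM in ASXL1-MT-KI and 216 ± 9.39 CPM in wild type (adjusted p = 0.00235). Rap1b, a switch for integrins, fell by 0.26 on the log2 scale (adjusted p = 0.0118), with 0.0546 when ASXL1-MT-KI replicate 2 was left out. The prostaglandin receptor gene Ptger3 fell by 0.46 on the log2 scale, a call that ended without ASXL1-MT-KI replicate 1 or 2 or wild type replicate 2 (adjusted p up to 0.0754). The prostacyclin receptor gene Ptgir rose by 0.84 on the log2 scale, a call lost without ASXL1-MT-KI replicate 2 or 3 or wild type replicate 1 or 2 (up to 0.0940). In the list of adhesion and ITAM signalling 2 of 25 rose and 4 fell. With the block 4 were higher and 8 lower, where 16.7% of all tested genes were higher and 13.8% lower. Src, a kinase gene that led the list, rose by 1.17 on the log2 scale (adjusted p = 0.00321). It averaged 5.82 ± 0.932 CPM in ASXL1-MT-KI and 2.57 ± 0.552 CPM in wild type. Plcg2, Lat and Fyn fell by 0.27, 0.48 and 0.33 on the log2 scale. Without ASXL1-MT-KI replicate 2 none of these 3 passed, with adjusted p of 0.0527, 0.0568 and 0.0596, and Fyn did not pass without wild type replicate 1 either (0.0676).

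Granule formation and release had 1 of 24 genes higher and 2 lower. With the block 4 were higher and 2 lower, where 16.7% of all tested genes were higher and 13.8% lower. Slc35d3, which acts in dense granule formation, fell by 0.54 on the log2 scale (adjusted p = 0.00738). Rab27a rose by 0.21 on the log2 scale, a call lost without any library but wild type replicate 3 (adjusted p up to 0.0623). Rab38 fell by 0.23 on the log2 scale, a call lost without ASXL1-MT-KI replicate 2 or 3 or wild type replicate 1 or 2 (up to 0.124), with total counts (0.0692) and without number 3 of both groups (0.0566). Of 10 granule cargo genes 1 rose and 3 fell, or 1 and 6 with the block. The α-granule protein gene Mmrn1 averaged 11.5 ± 1.93 CPM in ASXL1-MT-KI and 19.4 ± 1.09 CPM in wild type (log2 fold change -0.75, adjusted p = 0.00290), and Tgfb1 fell by 0.28 on the log2 scale (adjusted p = 0.00397). Angpt1 fell by 0.44 on the log2 scale, a call lost without ASXL1-MT-KI replicate 1 or 2 or wild type replicate 1 or 3 (up to 0.122), with total counts (0.0623) and without number 3 of both groups (0.0525). Plau rose by 0.52 on the log2 scale, a call lost without ASXL1-MT-KI replicate 2 or 3 or wild type replicate 1 or 2 (up to 0.154).

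Of 21 cytoskeletal genes 2 rose and 2 fell. With the block 2 were higher and 7 lower, where 16.7% of all tested genes were higher and 13.8% lower. Zyx, zyxin, averaged 156 ± 5.54 CPM in ASXL1-MT-KI and 216 ± 5.71 CPM in wild type (adjusted p = 0.000352). Parvb, β-parvin, averaged 33.9 ± 3.27 CPM in ASXL1-MT-KI and 20.4 ± 2.75 CPM in wild type (adjusted p = 0.00261). Diap1 fell by 0.21 on the log2 scale, but not without ASXL1-MT-KI replicate 1 or 2 or wild type replicate 1 or 3 (adjusted p up to 0.128) or with total counts (0.0979). Actn1 rose by 0.45 on the log2 scale, but not without ASXL1-MT-KI replicate 1 or 3 or wild type replicate 1 or 2 (up to 0.148) or with no filter (0.0585). Of 13 other eicosanoid genes 2 fell and none rose in edgeR, including at an unadjusted p under 0.05, or in DESeq2 or limma-voom. Ptgs2, cyclooxygenase 2, averaged 26.6 ± 5.20 CPM in ASXL1-MT-KI and 50.3 ± 2.48 CPM in wild type (adjusted p = 0.00267, and 0.0822 without number 3 of both groups). Pla2g4a, which frees arachidonic acid, fell by 0.41 on the log2 scale (adjusted p = 0.0138), but not without ASXL1-MT-KI replicate 2 (0.0532) or wild type replicate 1 (0.0578).

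**Figure D5:**
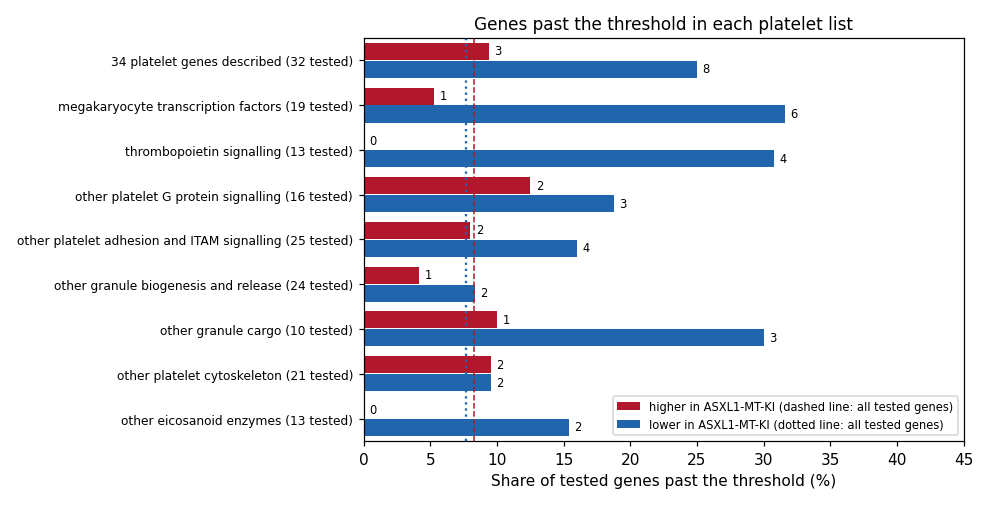
Share of tested genes past the threshold, in percent, in the list of 34 genes described and in 8 further lists of megakaryocyte and platelet genes; red bars are genes higher and blue bars genes lower in ASXL1-MT-KI, with the number at each bar and the shares of all tested genes, 8.29% and 7.69%, as lines. The shares of lower genes are 30.8% for thrombopoietin signalling and 31.6% for transcription factors, and 8.33% for granule biogenesis and release.

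Markers of other cells of the gate also moved, and their part in these results was not tested. Of 10 markers of stem and progenitor cells 5 fell and 2 rose. Their summed level was 462 to 478 CPM in ASXL1-MT-KI, against 579 to 644 CPM in wild type. Most of that sum came from Cd34 and Flt3, which averaged 303 and 79.1 CPM in ASXL1-MT-KI and 375 and 124 CPM in wild type. The log2 fold change was positive for 5 of the 10 markers and negative for 5, so the sum does not describe each of them. Procr and Flt3 fell by 1.44 and 0.65 on the log2 scale, while Fgd5 and Hoxb5 rose. F2r, Itga2b and Vwf are used by stem cells too, but the sum, mostly Cd34 and Flt3, does not measure stem cells alone. Monocyte and macrophage markers, which bear on Plek, Thbs1 and F10, summed to 831 to 886 CPM in ASXL1-MT-KI and 833 to 857 CPM in wild type. Of these 16 genes 1 was lower (Ccr2) and none higher in limma-voom or unblocked edgeR, with 1 higher in DESeq2 and 2 at an unadjusted p under 0.05. With the replicate block 6 of them were higher and 3 lower, where 16.7% of all tested genes were higher and 13.8% lower. Neutrophil markers summed to 18907 to 20058 CPM in ASXL1-MT-KI and 18413 to 20353 CPM in wild type. Most of that sum came from Mpo, which averaged 14007 CPM in ASXL1-MT-KI and 13938 CPM in wild type. Of the 11 tested neutrophil markers 9 had positive log2 fold changes and 2 negative, with a median of 0.27. None of the 11 was called in edgeR without the block. In DESeq2, in limma-voom and at an unadjusted p under 0.05, 2 were higher. With the block 6 were higher, where 16.7% of all tested genes were higher. All 12 erythroid markers had positive log2 fold changes with a median of 0.48, of which Slc4a1 passed without the block and all 12 with it. Averaged over the groups, all 12 were lower in number 3 libraries than in numbers 1 and 2. Lymphoid markers summed to 41.6 to 54.5 CPM in ASXL1-MT-KI and 64.8 to 90.7 CPM in wild type, with 4 of 10 lower, or 6 lower and 1 higher with the block. Mast cell, basophil and eosinophil markers summed to 216 to 483 CPM in ASXL1-MT-KI and 502 to 583 CPM in wild type, with none of 8 called in edgeR without the block, and 3 lower by limma-voom, 2 by DESeq2, 2 with the block and 2 at an unadjusted p under 0.05. Endothelial markers, which bear on Vwf, Selp and Thbs1, summed to 64.0 to 71.9 CPM in ASXL1-MT-KI and 69.3 to 78.3 CPM in wild type, with 1 of 7 higher and 2 lower. Cdh5, the VE-cadherin gene, had 2 to 15 counts in ASXL1-MT-KI and 5 to 16 in wild type.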

How the data were processed

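Per the labels' protocols, 200 ng total RNA of LK cells went into each NEBNext Ultra library, sequenced as 124 bp read pairs; that kit keeps no strand information. HISAT2 2.0.4 and mm10 are listed in the submitters' processing notes, and the sources used here do not name the counting tool or annotation. The authors' deposited table holds whole-number read counts for each symbol, without normalization. From it ASXL1-MT-KI was compared with wild type in edgeR 4.0.16 (R 4.3.3), with filterByExpr at a minimum of 10 counts, TMM factors (0.972 to 1.03), the robust quasi-likelihood test on genotype alone, and adjustment by Benjamini-Hochberg over 13548 genes at 0.05. Standard errors are the log2 fold change divided by the square root of F, and counting intervals are exact and cover counting error only. The code was tested on simulated counts. Log2 differences between single libraries use a prior count of 2. Lengths and coordinates are from GENCODE M21 (GRCm38), and figures were drawn with matplotlib 3.10.9.

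The 34 genes and all other lists were chosen with earlier results of these data known. All 34 genes were described, up to 4 called genes of each other list were named by lowest p, except some that are not reported here, and Asxl1 served as a check of the labels; other genes named were chosen after their values were seen. The tests were repeated with the replicate number as a block, other size factors, DESeq2 1.42.0, limma-voom (limma 3.58.1), other filters and thresholds, and with libraries left out. Replicate numbers come from the sample titles. Gene-wise deviations from group means had correlations of 0.253, 0.162 and 0.391 for the 3 pairs of libraries with equal numbers. All were above 0.1, so libraries of equal number were treated as pairs in the fit with the replicate block, although ASXL1-MT-KI 1 and wild type 2 also correlated, at 0.163. The main test, on genotype alone, did not use this pairing. No pair of libraries within a group agreed within sampling noise (chi-square per degree of freedom 8.25 to 27.3).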

Additional observations from a re-analysis of the deposited data

How the results depend on the processing

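Of the 32 tested genes, F2r, Plek, Treml1, P2ry1 and Serpine2 kept their direction and call under all 14 alternatives that gave a fold change, and no called gene changed sign. The 11 called genes gave 153 values, of which 119 kept and 34 lost the call. Of the 34 genes only Gp5 (1.68-fold) was higher at a fold of at least 1.5, where P2ry1 (1.40-fold) and Serpine2 (1.45-fold) lost their calls. At that fold 6 of the 34 were lower, against 383 of the 13548 tested genes. When each library was left out, 2 to 4 were higher. The count of lower genes was 4 to 6 when each library was left out and 5 without number 3 of both groups. The median log2 fold change of the 32 genes was -0.21 without ASXL1-MT-KI replicate 1 and -0.069 without ASXL1-MT-KI replicate 2, the extremes when each library was left out.

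With the replicate block, which pairs libraries by number, 2256 of all tested genes were higher and 1876 lower, against 1123 and 1042 without it; of the other megakaryocyte and platelet genes 18 were higher and 42 lower, against 9 and 26. Among the 34 genes the block changed the calls of Clec1b, Rab27b, Mrvi1 and F10 and no other. At a fold of at least 1.5, 504 of all genes were higher and 383 lower, as were 3 and 5 of the other megakaryocyte and platelet genes. Leaving out each library gave 534 to 1216 higher and 587 to 1041 lower among all genes, and 2 to 11 higher and 14 to 27 lower among the other megakaryocyte and platelet genes. With total counts, which moved the median of all genes to 0.05, 1562 genes were higher and 767 lower.

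Changes of sign were limited to genes without a call (34 values in 12 genes, adjusted p at least 0.570). When each library was left out, the log2 fold change ran from -0.11 to 0.077 for Gp1ba, -0.070 to 0.025 for Gp9, -0.28 to 0.076 for Pf4, -0.085 to 0.50 for Ppbp, -0.27 to 0.070 for Vwf, -0.19 to 0.060 for F2rl2, -0.080 to 0.15 for Nbeal2, -0.18 to 0.13 for F5 and -0.073 to 0.12 for Ptgs1. With total counts it was 0.038 for Gp1ba, 0.045 for Gp9, 0.011 for Pf4, 0.0092 for Vwf, 0.0090 for Fermt3 and 0.019 for F5. Without number 3 of both groups it was 0.095 for Gp1ba, 0.019 for Gp9, -0.025 for Cd9 and -0.024 for Alox12. The cause of these shifts was not tested. Clec1b, Tubb1, Alox12, Gp6 and Cd226 rest on at most 32 counts per library, which limits what can be seen of them.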
